A study of Mus musculus with 60 samples.

Results

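The 14 libraries described here are the untreated controls of RAD21-AID mouse embryonic stem cells (mESCs), chosen by their labels from the 60 libraries of the series. Of these, 2 came from the initial experiment (code CC24) and 12 from a later, additional one, which the labels divide into 1 library of code CC52 (replicate 1) and 11 of code CC53. The cells are E14 mESCs that carry the GFP-AID-Rad21 allele, in which the cohesin subunit RAD21 is fused to an auxin-inducible degron, and none of the 14 libraries received auxin. EU-seq was used, in which 0.5 mM 5-ethynyl uridine (5-EU) is given for 20 min and the newly made, labelled RNA is captured and sequenced. By the labels both groups grew in the same N2B27 medium, with 1000 units/ml of LIF, 1 µM of the MEK inhibitor PD0325901 and 3 µM of the GSK3 inhibitor CT-99021. As further libraries of the same line, 14 that were kept in 500 µM indole-3-acetic acid (IAA) for 4 h, 2 initial and 12 additional, were compared in the same way.

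The experiment, the library kit (NEBNext Ultra for the initial libraries, Ultra II modules for the additional ones) and the read length differ together between the groups, so their parts in any difference below cannot be told apart. The treatment text of the initial libraries speaks of DMSO and triptolide, while their titles and treatment labels say control, which was followed here. The question asked of the data is which signalling, naive and primed genes differed between untreated cultures of 1 line under the same written recipe.

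In mESCs, FGF4 made by the cells activates the kinases ERK1 and ERK2 through MEK, and this pushes the cells out of the naive state towards the formative and primed states. ERK activity induces its own brakes, among them the Sprouty and Spred inhibitors and the phosphatase Dusp6. It also induces the PEA3 transcription factors Etv4 and Etv5. Transcription of all these genes is widely read as a gauge of the pathway. LIF acts through STAT3, and GSK3 inhibition through beta-catenin, both of which hold cells in the naive state.

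The initial controls held 9982425 and 12176991 counted reads, the additional ones 6966470 to 19725013 (median 15692106.5). Across tested genes, log2 CPM of the 2 initial controls correlated with r = 0.995, and the 66 pairs of additional controls with r = 0.994 to 0.997, whereas the 24 pairs of an initial with an additional library had r = 0.958 to 0.971. No pair of replicates agreed within sampling noise, since the chi-square statistic per degree of freedom was 1.41 or higher. Each library was entered as 1 replicate within its experiment. The p values below therefore measure the spread between libraries of an experiment, not between repeated experiments. Stem cell markers were abundant in both groups. Nanog, for instance, was at 336 and 298 CPM in the initial controls and 572 to 631 CPM (median 603) in the additional ones. Levels are given as CPM, counts scaled to library size, with TMM factors over the 28 RAD21-AID mESC libraries.

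Between the groups, the ERK brakes Spry4 and Dusp6 and the BMP target Id3 were higher in the additional controls. So were Utf1 of the core pluripotency genes and Foxd3 of the formative and primed genes. The Wnt genes Lef1 and Cdx1 and the receptor Tlr4 were lower. Of the 13 ERK feedback genes, however, 11 were not called. That list had a median log2 fold change of -0.084, against -0.089 over all tested genes. The formative and primed genes split in both directions, with 2 called higher and 2 lower. Of 15727 genes with a mean count above 20 in either group, 1636 (10.4%) were called, of which 386 (2.45%) were higher and 1250 (7.95%) lower in the additional controls, where a call needs an adjusted p under 0.05 and at least a 2-fold difference. Log2 fold changes are additional minus initial and have the median over expressed genes (0.12) subtracted, so they tell how a gene moved against most others. An adjusted p under 0.05 at any fold was reached by 71.4% of genes, so the fold threshold, more than the p value, separated called from uncalled genes. Group ranges did not overlap for 64.2%. Among the 9673 expressed genes (above 15 TPM) the calls were nearly even, with 138 higher and 157 lower. Lower genes made up 76.4% of all calls, and 63.2% where fold changes were not centred.

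Calls followed gene length. In the lowest decile of gene-body length (at most 4.53 kb) the median log2 fold change was 0.39, and it declined decile by decile to -0.64 in the highest (131 kb or more), which held 405 of the genes called lower. Genes called higher had a median gene-body length of 10.9 kb, genes called lower 75.4 kb and uncalled genes 23.2 kb. GC content showed the reverse, with a median of -0.34 in the lowest GC decile and 0.31 in the highest. The cause of these trends was not tested. The length trend was then removed from the fold changes alone, with the adjusted p values of the main test kept. With the length trend removed, 357 genes (2.27%) were called higher and 871 (5.54%) lower. Only 252 of the 386 higher and 708 of the 1250 lower calls of the main test were among these. Each named call that the removal ended is given below with its value.

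**Figure D1:**
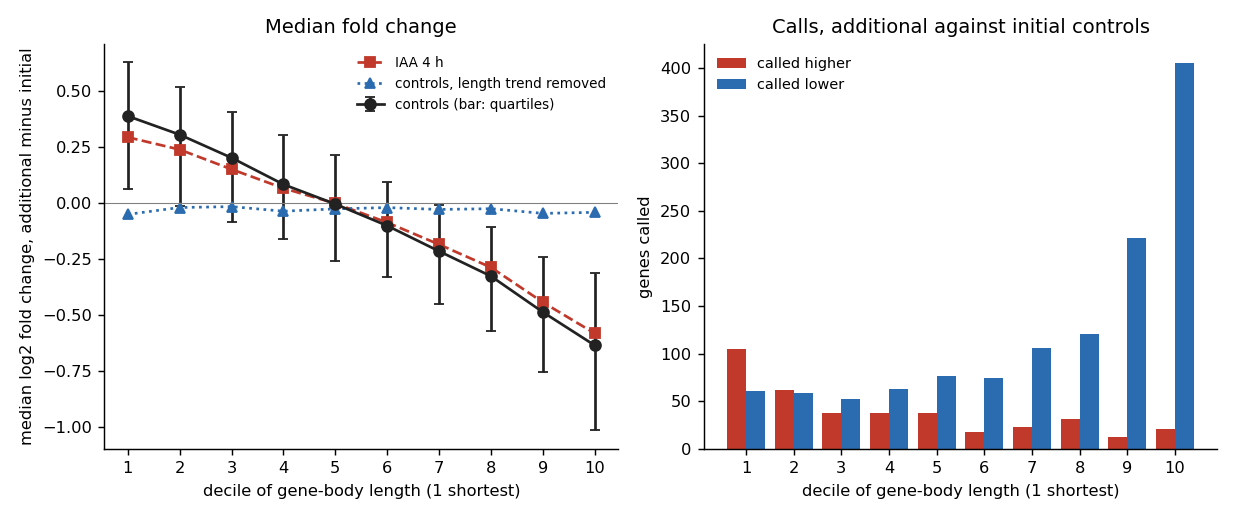
Left, median log2 fold change (additional minus initial) by decile of gene-body length, for the controls (bars, quartiles), for the IAA libraries and for the controls after removal of the trend; right, the number of genes called in each decile. The control median runs from 0.39 in the shortest to -0.64 in the longest decile, which also holds the most genes called lower (405).

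Spry4, Dusp6 and Etv4, the markers of the comparison, were all higher in every additional control than in either initial one, and the first 2 were called. Such separation of the groups, in either direction, was found for 64.2% of all tested genes. Spry4, a Sprouty inhibitor of the pathway between receptor and RAF, was at 3.76 and 3.77 CPM in the initial controls and 43.4 to 54.4 CPM (median 49.7) in the additional ones. The groups lay far apart, with a 12.1-fold difference (log2 fold change 3.60 ± 0.12 SE, edgeR adjusted p = 1.56e-26). The gene spans chr18:38586247-38601415 (mm10, 15.2 kb) and overlaps no other counted gene. Dusp6, the phosphatase that removes the activating phosphates of ERK, was at 4.08 and 3.33 CPM in the initial controls and 10.6 to 15.4 CPM (median 13.3) in the additional ones, a 3.33-fold difference (log2 fold change 1.73 ± 0.16 SE, edgeR adjusted p = 4.57e-13). Etv4, a PEA3 transcription factor, was at 15.5 and 16.4 CPM in the initial controls and 22.1 to 30.6 CPM (median 25.8) in the additional ones. Its groups did not overlap either, but the difference stayed under 2-fold (log2 fold change 0.58 ± 0.10 SE, edgeR adjusted p = 3.93e-08).

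Of the 13 ERK feedback genes tested, these 2 were called higher, none lower and 11 were not called, and the median log2 fold change was -0.084, against -0.089 over all tested genes. Without the length trend these medians were -0.042 and -0.032. The remaining inhibitors lay on both sides of 0. Spry1 had 0.23 and Spry2 0.34, which turned to -0.15 and -0.028 without the length trend. Spred1, Spred2 and Spred3, which hold RAS in check, had -0.23, -0.73 and -0.084, and the receptor-bound inhibitor Il17rd had -0.39. Among phosphatases, the nuclear Dusp4 was at 2.82 and 2.89 CPM against 1.31 to 2.67 (median 2.06) and Dusp5 at 8.05 and 6.31 CPM against 4.63 to 6.02 (median 5.48), with log2 fold changes of -0.61 and -0.51. Etv5, another PEA3 factor, was at 453 and 471 CPM against 470 to 498 (median 478), so its groups overlapped, and Etv1 was at 51.0 and 58.9 CPM against 26.5 to 38.9 (median 31.2). Etv1 had a log2 fold change of -0.94, and passed the fold threshold at -1.04 without initial replicate 1. The 11 uncalled members ran from -0.94 to 0.58 on the log2 scale.

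**Figure D2:**
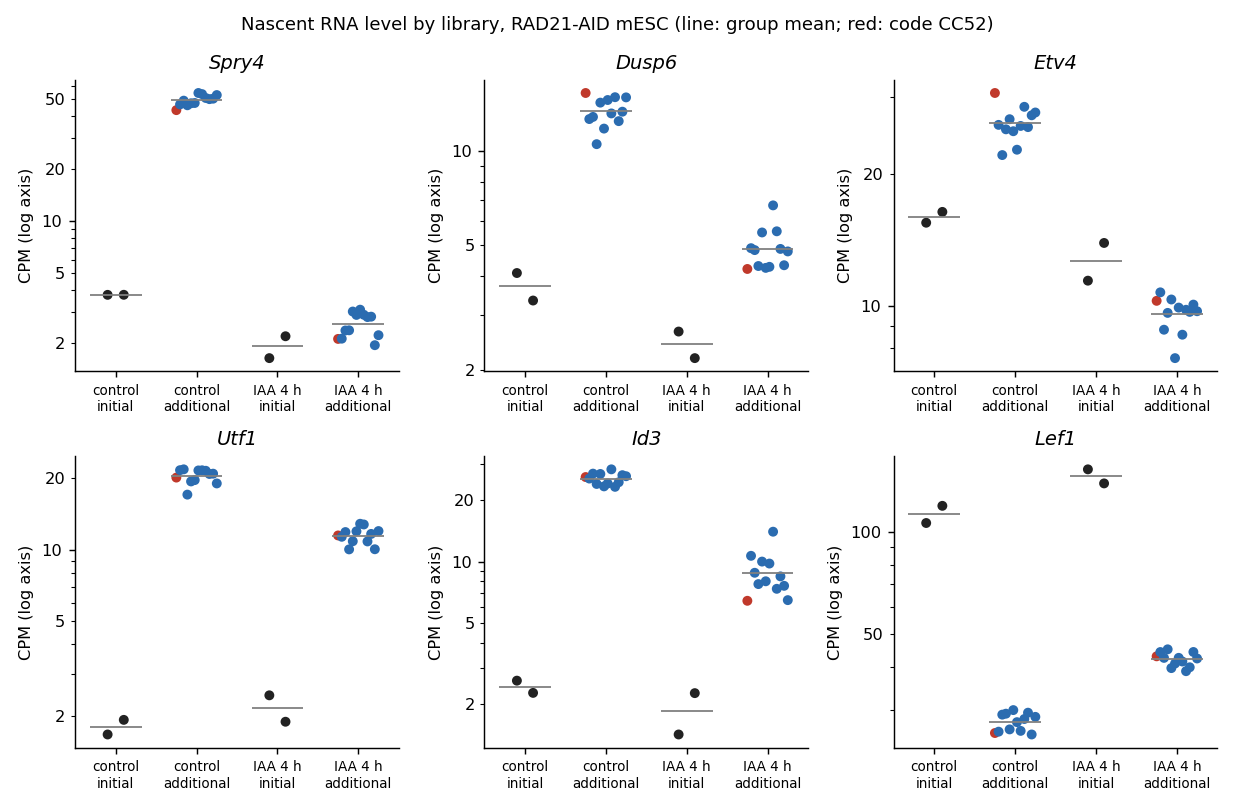
CPM (log axis) of 6 genes in every RAD21-AID mESC library, 1 point per library with a line at the group mean, initial libraries in black, code CC53 in blue and code CC52 in red. In controls Spry4, Dusp6, Etv4, Utf1 and Id3 lie higher and Lef1 lower in all 12 additional libraries than in both initial ones, while with IAA the additional libraries overlap the initial ones for Spry4.

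Sequence upstream of these genes is shown because ETS factors, the family of Etv4 and Etv5, are the nuclear endpoint of the pathway. RefSeq promoter windows on GRCm38.p6 were at hand for 10 of the 13 genes, not including Spry4 or Etv4. The 250 bases before the start were searched on both strands for CGGAAG (reverse CTTCCG), a longer form of the ETS core GGAA. Dusp6, Spred1 and Spred2 hold this longer form, as do 13.6% of all 32851 promoter windows. The core GGAA alone was not searched, and the sequences below hold it in lower case. The longer form, in capitals, is found in Dusp6 (chr10:99262981-99263230, plus strand), which was called. It is also in Spred2 (chr11:19924192-19924441, plus strand), which was not called, and it is not in the window of Spry2 (chr14:105896820-105897069, minus strand). A match of these letters describes the window and says nothing of binding.
Dusp6: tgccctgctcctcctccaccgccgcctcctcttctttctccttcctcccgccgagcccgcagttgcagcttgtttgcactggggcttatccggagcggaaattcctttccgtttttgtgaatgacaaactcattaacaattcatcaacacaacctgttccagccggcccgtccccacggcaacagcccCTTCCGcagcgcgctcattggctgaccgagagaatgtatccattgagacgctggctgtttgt
Spred2: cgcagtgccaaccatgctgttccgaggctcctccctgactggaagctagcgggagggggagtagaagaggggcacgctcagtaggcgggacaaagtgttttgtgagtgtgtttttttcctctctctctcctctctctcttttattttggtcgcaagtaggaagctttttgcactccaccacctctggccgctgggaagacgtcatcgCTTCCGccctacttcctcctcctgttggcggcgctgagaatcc
Spry2: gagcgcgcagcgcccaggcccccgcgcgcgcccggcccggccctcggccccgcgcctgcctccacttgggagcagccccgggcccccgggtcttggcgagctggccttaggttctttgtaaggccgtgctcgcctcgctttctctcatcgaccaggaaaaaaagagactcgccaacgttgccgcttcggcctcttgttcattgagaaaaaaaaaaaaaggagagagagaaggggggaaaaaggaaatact

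Of 21 tested genes upstream in the FGF and ERK cascade, 2 were called higher, none lower, and the median log2 fold change was -0.28, which became -0.029 without the length trend. Both called genes were ligands. Fgf4, the FGF that mESCs make for themselves, was at 82.4 and 73.8 CPM in the initial controls and 180 to 225 CPM (median 204) in the additional ones (log2 fold change 1.27 ± 0.06 SE, edgeR adjusted p = 1.04e-22). Its call was lost without the length trend (0.87). Fgf17 was at 3.66 and 3.68 CPM in the initial controls and 11.6 to 15.3 CPM (median 14.2) in the additional ones (log2 fold change 1.78 ± 0.15 SE, edgeR adjusted p = 2.53e-14). The receptor Fgfr2 entered these counts through a transcript model of 2961 kb that shares 27.4% of its length with other genes on the same strand and 28.6% on the opposite one, so its log2 fold change of -0.21 cannot be assigned to Fgfr2. A model of 104 kb of the same gene had -1.16 and was called lower.

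Immediate early genes, which answer growth signals within minutes, had 5 of 17 tested members called higher, none lower, and a median of 0.39. Without the length trend 3 were called higher and 1 lower, with a median of 0.15. Myc, a driver of growth and metabolism, was at 2.93 and 3.07 CPM in the initial controls and 10.3 to 13.6 CPM (median 11.2) in the additional ones (log2 fold change 1.82 ± 0.16 SE, edgeR adjusted p = 8.08e-14). Ccn1, a matricellular protein, was at 5.02 and 3.94 CPM against 12.8 to 18.04 (median 15.4), Junb, an AP-1 factor, at 4.91 and 4.47 CPM against 12.4 to 17.5 (median 16.0), and Ier3 at 1.15 and 1.05 CPM against 2.05 to 3.32 (median 2.87). Their log2 fold changes were 1.65, 1.60 and 1.25, and that of Btg2 was 1.04. The groups did not overlap for any of the 5 called genes, as for 64.2% of all tested genes. The calls of Ier3 (0.74) and Btg2 (0.64) were lost without the length trend, and Ier5, at 9.31 and 9.02 CPM against 4.67 to 6.42 (median 5.63, log2 fold change -0.85), was then called lower (-1.26). Egr1, Egr2, Egr3 and Fosb, which belong to the same list, were below the count filter in both groups.

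Core pluripotency genes had 4 of 7 tested members called higher, none lower and a median log2 fold change of 1.02, with all 7 values above 0. These genes are short (median 5.15 kb), and without the length trend the median was 0.65 with 2 calls. Utf1, a chromatin factor of pluripotent cells, was at 1.67 and 1.93 CPM in the initial controls and 17.1 to 21.8 CPM (median 20.9) in the additional ones, a 10.3-fold difference (log2 fold change 3.37 ± 0.16 SE, edgeR adjusted p = 2.59e-21). Lin28a, which blocks let-7 processing, was at 28.5 and 21.8 CPM in the initial controls and 54.8 to 64.7 CPM (median 60.8) in the additional ones (log2 fold change 1.16 ± 0.08 SE, edgeR adjusted p = 5.13e-18), a call that was lost without initial replicate 2 (0.98). The call of Tdgf1, a co-receptor of Nodal, at 104 and 101 CPM against 222 to 250 (median 236), and that of Pou5f1, the gene of OCT4, at 91.6 and 71.0 CPM against 160 to 193 (median 178), were lost without the length trend. Their log2 fold changes were 1.09 and 1.02 with it and 0.77 and 0.65 without. Pou5f1 also lost its call without initial replicate 2 (0.86).

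Of 18 naive pluripotency genes tested, 1 was called higher and none lower, and the median was 0.14. Klf4, the called gene and a target of LIF signalling, was at 105 and 86.0 CPM in the initial controls and 192 to 229 CPM (median 218) in the additional ones (log2 fold change 1.06 ± 0.06 SE, edgeR adjusted p = 7.58e-21). This call was lost without the length trend (0.70) and without initial replicate 2 (0.93). Of the other naive genes the 3 with the highest CPM, Tfcp2l1, Esrrb and Zfp42, which encode factors of the naive network, had log2 fold changes of -0.44, -0.23 and 0.15, and the last 2 changed sign without the length trend (0.22 and -0.031). Nanog, though not overlapping between the groups, was not called at 0.81.

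Formative and primed genes split in both directions, with 2 of 12 tested called higher, 2 lower and a median of 0.043, or 0.00095 without the length trend. Foxd3, a forkhead factor, was at 5.02 and 5.17 CPM in the initial controls and 19.9 to 27.5 CPM (median 23.9) in the additional ones (log2 fold change 2.10 ± 0.13 SE, edgeR adjusted p = 5.17e-18). Otx2, the homeobox factor of the formative state, was at 3.45 and 4.03 CPM in the initial controls and 11.1 to 15.3 CPM (median 12.5) in the additional ones (log2 fold change 1.64 ± 0.15 SE, edgeR adjusted p = 3.32e-13), although 30.7% of its body is shared with the opposite-strand gene Otx2os1, so the reads of the 2 cannot be told apart. Lef1, a nuclear partner of beta-catenin, went the other way at 106 and 119 CPM in the initial controls and 25.4 to 29.9 CPM (median 27.8) in the additional ones, a 4.43-fold decrease (log2 fold change -2.15 ± 0.05 SE, edgeR adjusted p = 7.53e-29). Cdh2, N-cadherin, was also lower, at 36.0 and 32.8 CPM against 11.1 to 14.5 (median 11.9, log2 fold change -1.62). Without the length trend Cdh2, which spans 220 kb, had -0.997 and missed the threshold. Pou3f1, Sox3 and Fgf5, further members of the list, were below the count filter.

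LIF and STAT3 genes had 4 of 12 called higher and none lower (median 0.46), among them Junb and Klf4, which other lists also hold. Without the length trend Gbx2, another member, was called lower (-1.09, and -0.67 with it). Pim3, a kinase, was at 30.5 and 23.8 CPM in the initial controls and 75.1 to 91.4 CPM (median 85.6) in the additional ones (log2 fold change 1.53 ± 0.08 SE, edgeR adjusted p = 2.10e-21), and Socs3, the feedback inhibitor of the receptor, at 58.7 and 45.7 CPM in the initial controls and 124 to 154 CPM (median 144) in the additional ones (log2 fold change 1.35 ± 0.07 SE, edgeR adjusted p = 8.55e-22). Socs3 dropped below 2-fold without the length trend (0.93). Wnt and beta-catenin genes had 1 of 19 called higher, 3 lower and a median of -0.44, which became -0.21 without the length trend, where none was called higher and Cdx2 was called lower (-1.04, and -0.72 with it). Besides Lef1, Cdx1, a caudal homeobox factor, was at 49.3 and 43.4 CPM in the initial controls and 13.9 to 22.2 CPM (median 19.3) in the additional ones (log2 fold change -1.38 ± 0.08 SE, edgeR adjusted p = 2.28e-17). Nkd1, an inhibitor of the pathway, was at 13.5 and 15.8 CPM against 5.12 to 7.82 (median 6.70, log2 fold change -1.26, and -0.90 without the length trend, which ended the call). Ccnd1, cyclin D1, was the 1 higher gene, at 68.6 and 62.3 CPM against 134 to 167 (median 154, log2 fold change 1.10). It shares 8.23% of its body with an opposite-strand gene, and was not called without the length trend (0.87).

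Nodal, activin and BMP genes had 2 of 12 called higher and 1 lower (median 0.34). Id3, an inhibitor of basic helix-loop-helix factors and a target of BMP signalling, was at 2.61 and 2.28 CPM in the initial controls and 23.2 to 28.2 CPM (median 25.7) in the additional ones, a 9.56-fold difference (log2 fold change 3.26 ± 0.14 SE, edgeR adjusted p = 1.01e-22). Inhbb, an activin subunit, was at 1.46 and 0.701 CPM against 3.78 to 6.51 (median 4.75), and Lefty1, an inhibitor of Nodal, at 7.01 and 5.96 CPM against 1.37 to 3.70 (median 2.59). Their log2 fold changes were 2.05 and -1.44. Groups did not overlap for any of these genes, as for 64.2% of all tested genes.

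**Figure D3:**
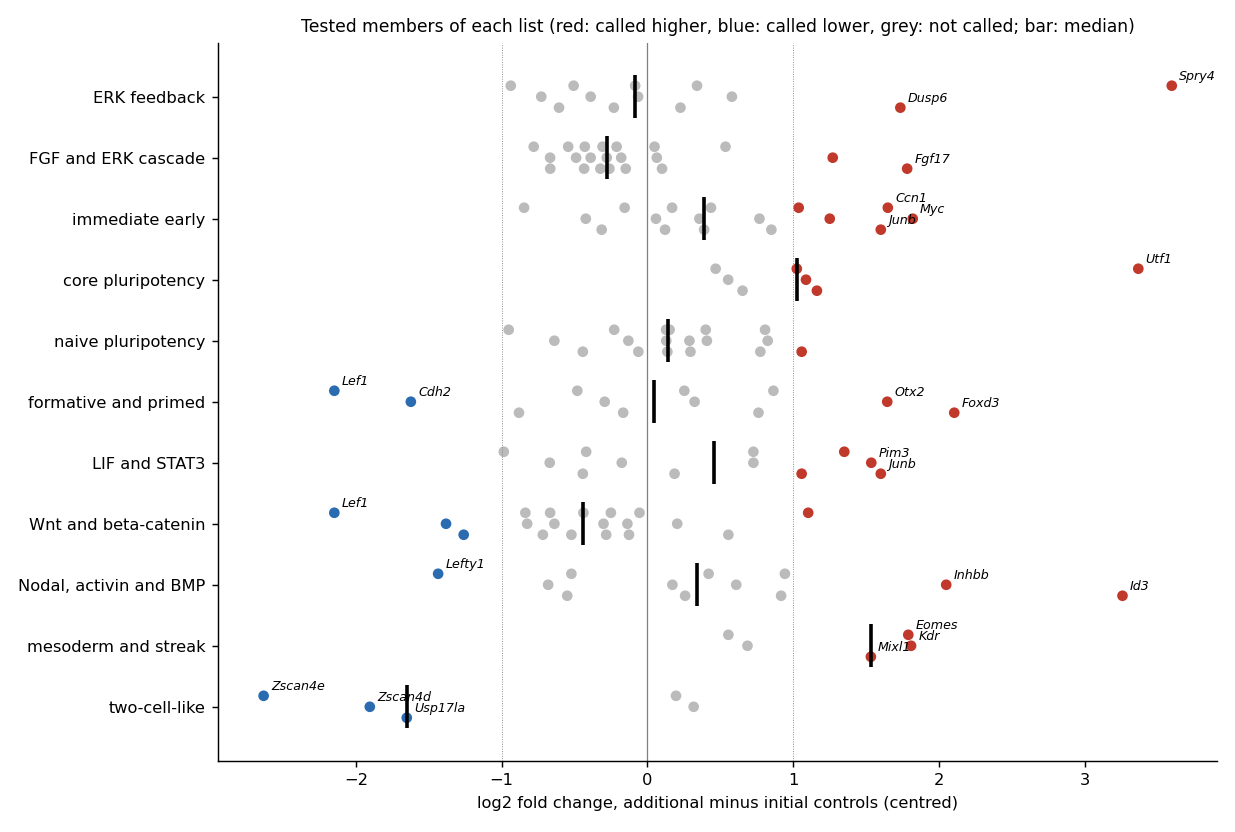
Log2 fold change (additional minus initial controls, centred) of every tested member of 11 gene lists, 1 point per gene, coloured by call, with a bar at the list's median and dotted lines at 2-fold. The widest differences are Spry4 (3.60), Utf1 (3.37) and Id3 (3.26) upwards and Zscan4e (-2.63) and Lef1 (-2.15) downwards, and most points of each signalling list lie within the dotted lines.

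Markers of other cell types and states were examined as well. Mesoderm and streak genes had 3 of 5 tested called higher, none lower, where 2.45% of all tested genes were called higher. Their summed level was 11.6 and 12.6 CPM in the initial and 27.3 to 32.7 CPM in the additional controls. In the IAA libraries 2 of 5 were called higher, of which 1 was also called in the controls. Kdr, a VEGF receptor, was at 2.09 and 2.37 CPM against 7.62 to 10.2 (median 8.19) and Eomes, a T-box factor, at 1.67 and 2.10 CPM against 5.92 to 8.76 (median 7.08), with log2 fold changes of 1.81 and 1.79, and Mixl1 reached 1.53 at 0.523 and 0.350 CPM against 1.04 to 2.01 (median 1.26). Two-cell-like genes, which mark a rare totipotent-like state, had 3 of 5 tested called lower and none higher, where 7.95% of all tested genes were called lower. The other 2 tested members lay above 0 and were not called, and 6 of the 11 counted members were below the filter. Zscan4e was at 5.96 and 5.61 CPM against 0.651 to 1.95 (median 0.917), Zscan4d at 18.7 and 12.3 CPM against 3.58 to 5.31 (median 4.40) and Usp17la at 9.93 and 5.78 CPM against 1.44 to 3.77 (median 2.69), with log2 fold changes of -2.63, -1.90 and -1.65. These families have near-identical copies, so the assignment of their reads is uncertain.

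Primitive endoderm genes had 1 of 9 tested called higher, Dab2 (1.01), and 1 lower, Gata4 (-1.46), with sums of 412 and 394 CPM against 487 to 546 CPM. Dab2 was at 1.46 and 1.23 CPM against 1.94 to 4.00 (median 2.93) and Gata4 at 2.72 and 4.38 CPM against 0.915 to 1.79 (median 1.48). The call of Dab2 was lost without initial replicate 2 (0.90) and without additional replicate 3, 7 or 9 (1.00, 0.99 and 0.97). Neural progenitor genes had 6 of 8 below the filter and Fabp7 at 0 counts in all 14 libraries. Of the 2 tested, Nes had a log2 fold change of -0.34 and was not called. Tubb3 was called higher at 18.7 and 16.8 CPM against 38.6 to 46.2 (median 41.7, log2 fold change 1.13). However, its whole body lies within another counted gene, and it was not called without the length trend (0.91). The neural progenitor sums were 39.7 and 35.7 CPM against 56.4 to 65.9 CPM. Trophoblast genes had 1 of 4 tested called higher, Krt8 at 0.418 and 0.876 CPM against 1.11 to 2.29 (median 1.41, log2 fold change 1.03). It shares 3.48% of its body with an opposite-strand gene, and was not called without the length trend (0.74), initial replicate 1 (0.63) or additional replicate 12 (0.95). The trophoblast sums were 45.0 and 36.8 CPM against 48.8 to 56.4 CPM. Of 8 fibroblast genes 7 were below the filter, with a summed level of 8.05 and 5.96 CPM against 7.55 to 10.97 CPM. The part of such cells in the differences above was not tested, and in bulk libraries a change in their number and a change in RNA per cell cannot be told apart.

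Among the 10 genes with the largest differences at 5 CPM or more, Enox1, Spry4, Pax8, Cyp1a1 and Utf1 were higher and Tlr4, Pde4b, Serpina3m, Dcdc2a and Galnt18 lower. Enox1, a cell-surface oxidase of 565 kb, was at 7.11 and 10.5 CPM in the initial controls and 116 to 139 CPM (median 130) in the additional ones (log2 fold change 3.74 ± 0.09 SE, edgeR adjusted p = 2.09e-30). Being long, it ran against the length trend. Pax8, a paired-box factor, was at 1.15 and 1.31 CPM against 12.1 to 16.9 (median 15.6, log2 fold change 3.48), and Cyp1a1, the classic target of the aryl hydrocarbon receptor, at 3.14 and 2.10 CPM against 26.3 to 33.7 (median 30.4, log2 fold change 3.43). Downwards, Tlr4, the receptor of lipopolysaccharide, was at 34.0 and 33.7 CPM in the initial controls and 1.90 to 3.16 CPM (median 2.61) in the additional ones (log2 fold change -3.81 ± 0.10 SE, edgeR adjusted p = 1.78e-28). Pde4b, a cAMP phosphodiesterase, was at 41.8 and 42.2 CPM against 2.52 to 4.96 (median 3.35) and the serpin Serpina3m, which shares 13.7% of its body with Serpina3k, at 29.2 and 26.7 CPM against 1.83 to 3.26 (median 2.54). Their log2 fold changes were -3.70 and -3.58, and Dcdc2a and Galnt18 had -2.77 and -2.73. All 10 were called without the length trend as well, and none of their groups overlapped, which the rule that chose them required.

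The 2 codes of the additional experiment were set side by side, with CC52 as a lone library that was assumed to vary like the rest, so the counts of calls do not measure how alike the codes are. Between CC53 and CC52 24 genes (0.153%) were called. There were 1650 (10.5%) calls between CC53 and the initial controls and 1653 (10.5%) between CC52 and the initial controls. CC53 had 383 genes (2.44%) called higher than in the initial controls and CC52 had 540 (3.43%), with 273 in both. CC53 had 1267 (8.06%) called lower and CC52 had 1113 (7.08%), with 940 in both. These 2 contrasts share the initial controls. The CC52 library alone gave log2 fold changes of 3.42 for Spry4, 1.96 for Dusp6 and 0.84 for Etv4 against the initial controls. It had the highest Dusp6 and Etv4 and the lowest Spry4 of the 12 additional controls.

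The same contrast was then made in the IAA-treated libraries, which the control comparison does not use, to see which differences between the experiments were found with IAA as well. Of 15800 genes, 285 (1.8%) were called higher and 1055 (6.68%) lower in the additional IAA libraries. Of the 357 genes called higher in controls and tested here, 169 were called higher again, and of 1181 called lower, 838 were called lower again, with none called in the opposite direction. Of the 13 ERK feedback genes none was called higher and 2 lower, Dusp4 and Etv1 (log2 fold changes -1.41 and -1.46), and the median was -0.52 against -0.079 over all genes. Fgf4, Fgf17, Foxd3, Otx2, Klf4, Utf1 and Id3 were called higher and Lef1, Cdh2, Cdx1, Nkd1 and Lefty1 lower in both settings. Lef1 was at 152 and 138 CPM in the initial IAA libraries and 38.9 to 45.1 CPM (median 42.5) in the additional ones, a log2 fold change of -1.90.

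**Figure D4:**
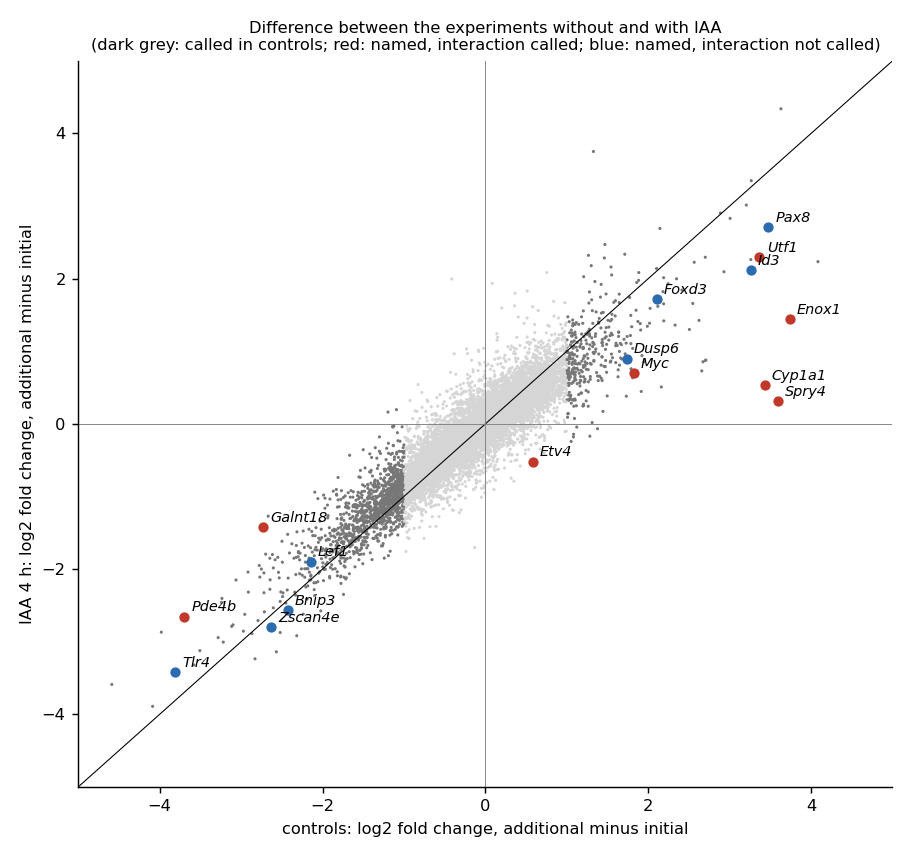
Log2 fold change (additional minus initial) in controls (x axis) and in IAA libraries (y axis) for the 15527 genes tested in both, with genes called in controls in dark grey and the line of equality. Of the genes called in controls, 169 of 357 higher and 838 of 1181 lower ones are called the same way with IAA, whereas Spry4, Cyp1a1, Enox1 and Etv4, among the red points with a called interaction, lie well below it.

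Spry4 did not keep its difference. It was at 1.63 and 2.18 CPM in the initial IAA libraries and 1.93 to 3.09 CPM (median 2.58) in the additional ones, where the ranges overlapped and the log2 fold change was 0.31. The log2 difference of IAA minus control was -4.25 in the additional experiment and -0.97 in the initial one. The test of the difference of these effects gave -3.27 ± 0.35 SE, edgeR adjusted p = 1.05e-09. Spry4 was already low in the initial libraries, with 36 and 43 reads in controls and 16 and 23 with IAA. The interaction also contains the difference between the controls, and the cause of the smaller fall in the initial experiment was not tested. Dusp6 was at 2.65 and 2.18 CPM in the initial IAA libraries and 4.20 to 6.72 CPM (median 4.81) in the additional ones, higher in every additional library but not called (0.90), and its interaction did not pass (-0.82 ± 0.31 SE, edgeR adjusted p = 0.092). Etv4 was at 11.4 and 13.9 CPM in the initial IAA libraries and 7.59 to 10.7 CPM (median 9.75) in the additional ones, so every additional library lay below both initial ones, the reverse of the controls (interaction -1.09 ± 0.15 SE, edgeR adjusted p = 9.30e-07). Across all 16000 genes tested, 53 (0.331%) had a called interaction, and 26 without initial replicate 2.

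Levels in the other untreated mESC lines of the series, which carry AID-tagged or mutant CTCF, are given as a description, since line, kit and experiment differ together. On a scale set over all untreated mESC libraries, Spry4 was at 42.9 to 53.7 CPM in the additional RAD21-AID controls and at 48.6 and 52.1 CPM in CTCF-YF-AA cells, and at 8.68 CPM or less in all the others, including 3.70 and 3.72 CPM in the initial RAD21-AID controls and 2.23 CPM or less in dN/dC-CTCF cells. Dusp6 was lowest in the initial RAD21-AID controls, at 3.29 and 4.01 CPM, and highest in CTCF-YF-AA cells, at 21.3 and 24.9 CPM, while a stranded CTCF-AID control reached 21.1 CPM and its partner 8.28 CPM. Etv4 ranged from 10.4 and 10.6 CPM in unstranded CTCF-AID controls to 62.0 and 62.8 CPM in CTCF-YF-AA cells. Id3 and Utf1 were lower in the initial RAD21-AID controls than in any other group, at 2.25 and 2.57 CPM for Id3 and 1.65 and 1.90 CPM for Utf1. Lef1, in turn, was highest there, at 104 and 117 CPM, and between 3.77 and 43.6 CPM in all other untreated libraries. Cyp1a1 stood out in the additional RAD21-AID controls, at 26.1 to 33.2 CPM, with 5.78 CPM or less in all others.

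**Figure D5:**
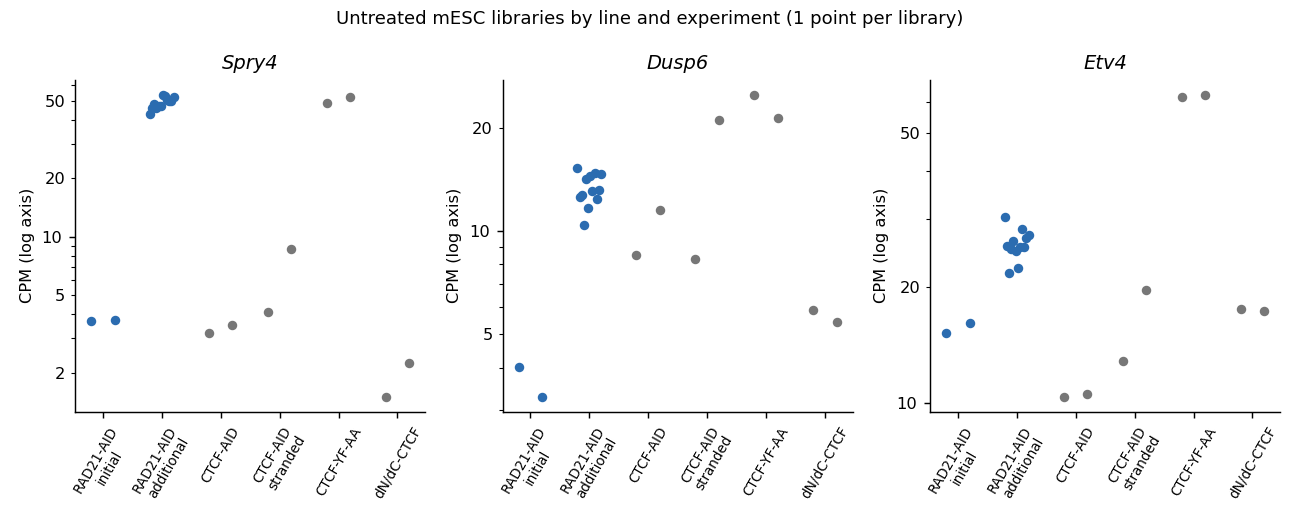
CPM (log axis, scaled over all untreated mESC libraries) of Spry4, Dusp6 and Etv4, 1 point per library, RAD21-AID in blue and other lines in grey. For Spry4 the additional RAD21-AID controls (42.9 to 53.7 CPM) sit with CTCF-YF-AA cells (48.6 and 52.1), and the initial ones (3.70 and 3.72) with the remaining lines.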

How the data were processed

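EU-seq counts of 14 untreated and 14 IAA-treated RAD21-AID mESC libraries were used, grouped by the labels. Alignment to mm10 was done by the authors with bwa, and SAMtools (1.4 in the submitters' processing notes) and HTSeq served for filtering and for counting over gene bodies. Raw, unscaled counts were deposited for 27665 transcripts in 62 columns. The libraries are not among those titled stranded, and the strand setting of the counting is not given in the sources used here. Annotation came from GENCODE M21, which matched 27455 transcripts, and a gene with several transcripts is represented by the most counted one.

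In R 4.3.3, edgeR 4.0.16 fitted TMM-scaled counts with the two-sided quasi-likelihood F test and Benjamini-Hochberg adjustment over all tested genes. The p value tests the uncentred fold change, also where a trend was removed. DESeq2 1.42.0, other factors and filters (mean count above 20 in the main test), thinning, trend removal by loess, left-out libraries and a replicate block were alternatives. The replicates are stated as biological. The method was tested on simulated data.

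Members and gene lists were chosen with earlier results of these data known. Named were the ERK feedback genes, up to 4 called genes of each other list (with fewer than 2 called, the most abundant ones added, to 2 in all or 4 for naive genes) and the 5 largest changes each way at 5 CPM or more, without Gm and Rik symbols and with groups that do not overlap. Nanog, Btg2, Fgfr2, Ier5, Gbx2, Cdx2, Slc7a11, Cth and Rad21 lie outside this rule and were named after their values were seen, and a gene under it is not reported here.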

Additional observations from a re-analysis of the deposited data

Results flagged for a closer look

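The effect of IAA differed between the 2 experiments for 9 of the named genes, by the test of the interaction (additional minus initial, log2). It was more negative in the additional experiment for Spry4 (-3.27 ± 0.35 SE, edgeR adjusted p = 1.05e-09), Cyp1a1 (-2.89 ± 0.24 SE, edgeR adjusted p = 4.33e-13), Enox1 (-2.29 ± 0.20 SE, edgeR adjusted p = 1.66e-12), Myc (-1.11 ± 0.22 SE, edgeR adjusted p = 3.98e-04), Etv4 (-1.09 ± 0.15 SE, edgeR adjusted p = 9.30e-07), Utf1 (-1.06 ± 0.32 SE, edgeR adjusted p = 0.0304) and Ahrr (-1.01 ± 0.17 SE, edgeR adjusted p = 4.09e-05). For Galnt18 (1.32 ± 0.16 SE, edgeR adjusted p = 4.25e-08) and Pde4b (1.05 ± 0.15 SE, edgeR adjusted p = 1.34e-06) it was more positive. Most of these genes were named for their difference between the controls, which the interaction also contains. That choice therefore favours both the calls and their signs. Over all 16000 genes tested, 53 (0.331%) had a called interaction.

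Cyp1a1 was at 36.8 and 33.6 CPM in the initial IAA libraries and 43.1 to 61.9 CPM (median 55.2) in the additional ones. Ahrr was at 15.6 and 13.4 CPM in the initial IAA libraries and 16.2 to 20.7 CPM (median 18.5) in the additional ones. For these 2 genes, and for Myc, the initial IAA libraries were above both initial controls. The log2 difference of IAA minus control was above 0 in both experiments. It was 3.77 (initial) and 0.87 (additional) for Cyp1a1, 1.46 and 0.45 for Ahrr, and 1.47 and 0.35 for Myc. For these genes the additional experiment thus had a smaller rise, not a fall. Enox1 was at 7.54 and 8.71 CPM in the initial IAA libraries and 19.5 to 26.0 CPM (median 24.5) in the additional ones, and Myc at 8.35 and 8.33 CPM in the initial IAA libraries and 11.8 to 16.0 CPM (median 14.6) in the additional ones. Experiment, kit and read length cannot be told apart here either.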

How the results depend on the processing

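Counts of calls were steady across tests and unsteady across filters. Counts alone do not show which genes were kept. With length and GC trends removed, 246 of the higher and 697 of the lower calls of the main test remained. Without a filter on low counts 636 genes were called higher and 1930 lower, and with a mean count above 100 only 178 and 663; under the same stricter filter CC53 against the initial controls gave 846 calls, CC52 against the initial controls 889 and CC53 against CC52 8. DESeq2 gave 388 and 1256, upper-quartile factors 386 and 1250, uncentred fold changes 562 and 965, thinning to the smallest library 299 and 1067, removal of length and GC trends 354 and 859, and centring inside the test 387 and 1250; the last 2 were chosen after seeing the data, as were the alternatives of the interaction and of the codes. Leaving out 1 library gave 372 to 548 higher and 1188 to 1357 lower genes in controls, and 287 to 385 and 1004 to 1158 in IAA libraries (initial replicate 1 or 2 or additional replicate 1 left out), where DESeq2 gave 289 and 1059. The interaction gave 26 to 53 calls without initial replicate 1 or 2 or additional replicate 1.

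The replicate numbers are labels of separate experiments and no source pairs them. Deviations of same-numbered controls correlated by 0.03 and -0.04, and a fit of replicates 1 and 2 alone with a replicate block gave 427 higher and 1210 lower genes.

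Of 73 named genes, 49 kept direction and call under every alternative run. The trend removals ended 13 calls each, given beside those genes. Sign changes, all of uncalled genes, came with the length trend removed and with length and GC trends removed for Spry1 (-0.15 and -0.17), Spry2 (-0.028 and -0.046), Spred1 (0.083 and 0.12), Etv5 (0.24 and 0.23), Zfp42 (-0.031 and -0.028), Esrrb (0.22 and 0.20) and Pds5a (0.078 and 0.12). Uncentred, Etv5 had 0.053 and Spred3 0.033, and Spred3 also had 0.12 with the replicate block, and 0.020 and -0.19 without initial replicate 1 and 2. The cause of these changes was not tested. With 2 initial libraries, the spread of that group is known poorly, and genes near the filter rest on few reads.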

Other observations

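Cholesterol synthesis genes, which make sterols, had 19 of 20 log2 fold changes above 0 and a median of 0.49, but only Msmo1, a sterol oxidase, was called at 35.8 and 36.4 CPM against 72.0 to 88.1 (median 82.8, log2 fold change 1.07 ± 0.07 SE, edgeR adjusted p = 8.43e-19). It missed the threshold without the length trend (0.97). Targets of ATF4, the amino acid response, had 2 of 17 called higher, none lower, and a median of 0.49, and Slc7a11 and Cth were called as well without the length trend (1.37 and 1.09). Chac1, a glutathione-degrading enzyme, was at 0.836 and 0.876 CPM against 2.37 to 5.59 (median 4.06) and Shmt2, of mitochondrial serine metabolism, at 15.8 and 12.4 CPM against 28.6 to 34.3 (median 31.7). Their log2 fold changes were 2.14 and 1.05, the second not called without the length trend (0.69) or without initial replicate 2 (0.88). Heat shock genes had none of 8 tested called (median 0.49, and 0.14 without the length trend), where edgeR gave Hspd1 0.36 and Hsph1 0.26.

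Hypoxia and glycolysis genes had 2 of 10 tested called lower and none higher (median -0.33, and -0.50 without the length trend). Bnip3, of mitophagy, was at 17.1 and 17.96 CPM against 1.78 to 4.49 (median 3.36, log2 fold change -2.43 ± 0.14 SE, edgeR adjusted p = 8.48e-18), and the HIF hydroxylase Egln3 at 7.32 and 7.18 CPM against 2.07 to 4.00 (median 3.00, log2 fold change -1.39 ± 0.17 SE, edgeR adjusted p = 3.19e-08). Among NRF2 and aryl hydrocarbon receptor targets, 2 of 9 were called higher, Cyp1a1 and Ahrr, the receptor's repressor, at 5.02 and 5.43 CPM against 11.4 to 15.8 (median 13.8, log2 fold change 1.26 ± 0.14 SE, edgeR adjusted p = 1.42e-11). Of 12 p53 targets Perp was called higher (1.21), while Mdm2 had 0.17. None of the 11 cohesin and CTCF genes was called (median -0.34, and 0.10 without the length trend); Stag1 had -0.72 and Pds5a -0.35, and Rad21 itself was at 240 and 244 CPM against 260 to 280 (median 268).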
